A study of Mus musculus with 3 samples.

Results

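A list of 10 genes that mark the 2-cell-like state was followed in mouse embryonic stem cells (mESCs) treated with the MEK inhibitor PD0325901 (PD). It held Zscan4c, Zscan4d, Zscan4e, Zscan4f, Zfp352, Tcstv1, Tcstv3, Usp17la, Tdpoz1 and Tdpoz3, and a gene was taken as measured if the array carried a probe whose accession belongs to it. Of the 10 genes, 8 were measured, with 14 probes, among 20660 genes named on the array. Zscan4d and Zscan4e had no probe of their own under this rule, and Zscan4e is annotated as a pseudogene. The cells were of the J1 line, which was derived from the inner cell mass of 129S4/SvJae mice and was grown here on gelatin in medium with serum replacement and leukemia inhibitory factor (LIF) at 1000 U/mL. All 3 samples received 1 µM PD for 24 h and formed 1 group, replicates 1 to 3. Cells without PD were not analysed here, so no effect of PD was measured and no p-value is given for one. RNA of each sample was labelled with Cy3 and hybridised to 1 array, and all 3 arrays were read from 1 slide.

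In mouse embryos the genes of this group are transcribed in a burst when the zygotic genome is switched on at the 2-cell stage, and they are then shut off. In cultures of mESCs a small and changing fraction of cells passes through a state that resembles that stage, with transcripts of Zscan4, of the MERVL retrovirus and of several gene clusters. The homeodomain factor DUX switches this state on, DPPA2 and DPPA4 act upstream of it, and chromatin repressors such as TRIM28, SETDB1, LSD1 and the CAF-1 complex hold it down. A bulk array averages over all cells of a culture, so a larger fraction of such cells and more RNA in each of them cannot be told apart.

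The 3 arrays were alike in brightness and in the share of probes that were detected. The 75th percentile of the processed signal, the background-subtracted brightness of a spot in scanner units, was 551, 511 and 527 on replicates 1, 2 and 3. Detection required the scanner software's flag for a spot well above background in 50% or more of a probe's spots, which 65.2%, 63.1% and 63.2% of the 55681 probes met. The lowest signal of a detected probe was 10.1, 11.4 and 10.3, and of 308 negative control spots 5, 16 and 4 passed the same flag. Replicate 2 carried 187 spots flagged as non-uniform, against 25 and 8 on the others. Of these, 148 lay in 6 of 48 blocks of its surface, which held 12.6% of all spots. No spot was saturated. All 10 embryonic stem cell markers of the list used, among them Pou5f1, Nanog, Esrrb and Zfp42, were detected on all 3 arrays, with mean signals from 249 to 199506.

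Most genes of this group belong to families of related copies, and the windows around their annotated starts show how alike some of the copies are. Windows of 300 bases, 250 before and 50 after the start, were available from RefSeq (GRCm38.p6) for 6 of the 10 genes. The 3 Zscan4 windows are shown because they are near-identical. Sequences of the probes and transcripts were not compared, so which copies a probe binds was not tested. Zfp352 is shown for a repeated motif. Tdpoz1 and its relative Tdpoz8 are shown because the windows are similar while their probes were not alike in detection. Each is written 5′ to 3′ in lower case, and capitals mark the letters TATAAA (a core promoter element), TGATNNNATCA (an inverted pair of TGAT) and TAATCC (a motif of OTX-type homeodomain factors), on either strand.
Zscan4c (chr7:11005495-11005794, plus strand): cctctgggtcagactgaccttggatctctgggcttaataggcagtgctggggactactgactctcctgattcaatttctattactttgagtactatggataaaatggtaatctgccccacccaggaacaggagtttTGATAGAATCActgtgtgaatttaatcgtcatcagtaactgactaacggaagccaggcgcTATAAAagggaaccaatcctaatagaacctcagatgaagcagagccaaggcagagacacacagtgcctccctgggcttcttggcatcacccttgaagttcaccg
Zscan4d (chr7:11166099-11166398, minus strand): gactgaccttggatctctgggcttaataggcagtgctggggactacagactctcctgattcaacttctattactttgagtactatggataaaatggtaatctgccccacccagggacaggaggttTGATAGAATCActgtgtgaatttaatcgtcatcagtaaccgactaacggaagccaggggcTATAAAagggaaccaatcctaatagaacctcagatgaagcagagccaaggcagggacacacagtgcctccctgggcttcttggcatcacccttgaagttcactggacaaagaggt
Zscan4f (chr7:11397665-11397964, plus strand): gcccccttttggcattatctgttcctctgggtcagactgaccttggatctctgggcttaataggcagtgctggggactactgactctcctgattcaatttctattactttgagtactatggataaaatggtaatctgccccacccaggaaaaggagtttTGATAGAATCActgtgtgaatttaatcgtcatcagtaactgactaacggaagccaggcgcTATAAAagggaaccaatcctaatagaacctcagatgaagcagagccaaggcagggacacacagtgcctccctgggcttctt
Zfp352 (chr4:90218570-90218869, plus strand): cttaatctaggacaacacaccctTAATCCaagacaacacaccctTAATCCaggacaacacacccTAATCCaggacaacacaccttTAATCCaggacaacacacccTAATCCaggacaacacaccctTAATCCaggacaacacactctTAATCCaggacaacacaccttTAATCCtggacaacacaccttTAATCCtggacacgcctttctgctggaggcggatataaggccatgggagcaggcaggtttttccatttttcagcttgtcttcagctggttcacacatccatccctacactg
Tdpoz1 (chr3:93676234-93676533, minus strand): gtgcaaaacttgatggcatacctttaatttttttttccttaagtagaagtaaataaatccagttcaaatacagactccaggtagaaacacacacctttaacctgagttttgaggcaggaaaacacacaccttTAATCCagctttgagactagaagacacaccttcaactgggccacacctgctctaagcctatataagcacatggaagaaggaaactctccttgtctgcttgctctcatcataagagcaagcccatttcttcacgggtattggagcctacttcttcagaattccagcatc
Tdpoz8 (chr3:93068573-93068872, plus strand): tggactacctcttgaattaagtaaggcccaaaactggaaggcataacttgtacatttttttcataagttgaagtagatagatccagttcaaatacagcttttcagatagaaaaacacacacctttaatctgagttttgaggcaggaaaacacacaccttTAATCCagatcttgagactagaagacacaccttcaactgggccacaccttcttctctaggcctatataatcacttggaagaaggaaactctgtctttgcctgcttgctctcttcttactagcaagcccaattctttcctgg

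The window of Zscan4c matched that of Zscan4f at 275 of 277 aligned bases (99.3%). Against Zscan4d it matched at 281 of 289 aligned bases (97.2%). The Usp17la window matched that of its neighbour Usp17lb at 249 of 286 aligned positions (87.1%), and the Tdpoz1 window matched the printed window of Tdpoz8 at 233 of 276 (84.4%). Tdpoz8 had a further window, at another annotated start, which was not aligned.

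Of the 6 windows of the group, the 3 of Zscan4c, Zscan4d and Zscan4f held the exact letters TATAAA, as did 13.6% of 32851 promoter windows. Other forms of the TATA box were not searched, so the windows without TATAAA are not shown to lack one. The TATAAA match began at position -31 in Zscan4f, -54 in Zscan4c and -65 in Zscan4d, counted from the first transcribed base as 1. The same 3 windows, and that of the relative Zscan4b, each held the inverted TGAT pair as TGATAGAATCA, which began 60 bases before TATAAA in all 4. This pattern occurred in 0.484% of all windows. It was searched after the stricter form of the DUX motif, TGATTNAATCA, which is in 0.0335% of all windows, was found in none of the 6. The motif TGCACAC, which ZSCAN4 itself binds, was also in none of the 6 and in 4.40% of all windows. Since the Zscan4 windows are copies of each other, their matches are not separate observations.

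The window of Zfp352 differed from all of these. It held TAATCC 9 times between positions -227 and -61, in steps of 20 or 21 bases. The bases between the matches are near-copies of 1 repeated unit, so the 9 matches are not separate observations. TAATCC was present in 7.06% of all windows, and 1 of the 32851 windows, that of Zfp352 itself, held it 9 times. Tdpoz1 and the printed window of Tdpoz8 each held it once, and the further window of Tdpoz8 did not hold it. The window of Usp17la held none of the 3 motifs marked above. A match of letters is a description of the window and was not tied to binding.

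**Figure D1:**
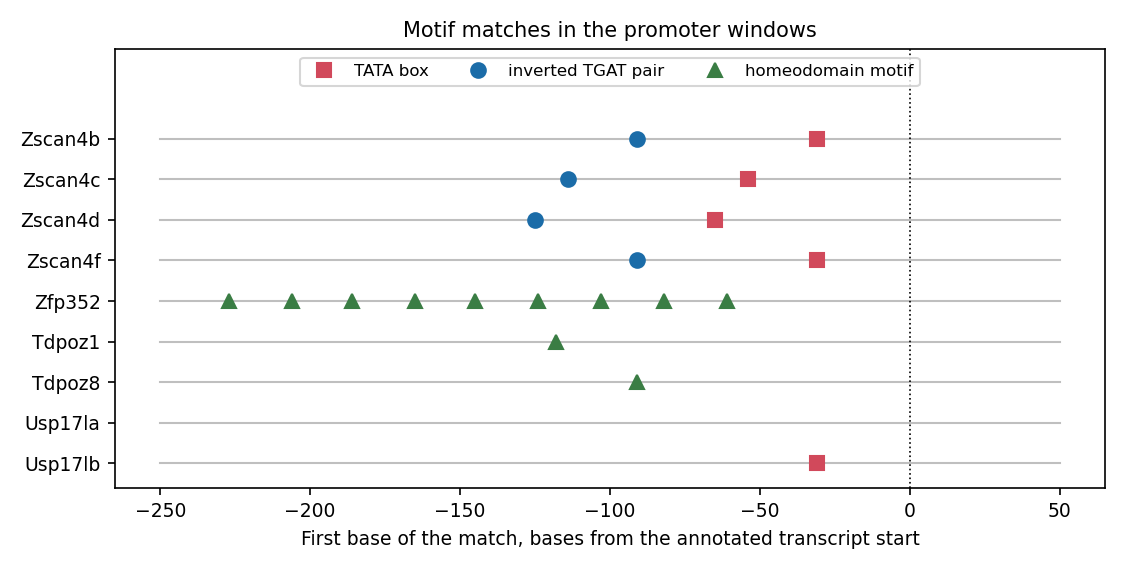
Position of 3 motifs in windows from 250 bases before to 50 bases after the annotated start (dotted line), 1 row per gene and 1 symbol per match, placed at its first base. The TATA box symbol marks the exact letters TATAAA, and the row of Tdpoz8 shows its printed window. The Zscan4 rows share 1 pair of matches 60 bases apart, Zfp352 carries 9 matches to the homeodomain motif, and Usp17la none.

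The group was detected about as often as genes in general. Of its 8 genes, 6 (75%) had a probe that was detected on all 3 arrays, beside 72.8% of all 20660 named genes. Of its 14 probes, 9 (64.3%) were detected on all 3 arrays, beside 60.3% of all 55681 probes. The 6 genes were Zscan4c, Zscan4f, Zfp352, Tcstv1, Tcstv3 and Usp17la, and the remaining 2 were Tdpoz1 and Tdpoz3. Signals of different probes depend also on the probe's sequence, so the genes were not ranked by level.

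The Zscan4 genes encode proteins with a SCAN domain and zinc fingers that act in telomere maintenance of mESCs, and their transcripts are the usual marker of the state. Zscan4f, with 1 probe, gave signals of 2732, 2510 and 2572 on replicates 1, 2 and 3. After each array was set to its own 75th percentile, which is level 0 on the log2 scale, the mean level of Zscan4f was 2.30 ± 0.012 (SD, n = 3). This was the smallest spread among the detected probes of the group on this scale, and it was 0.043 when arrays were set to the median of all probes and 0.062 with normexp background correction.

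Zscan4c had 3 probes, and all were detected on every array. The probe A_55_P2019533 gave signals of 1638, 1425 and 1501, a level of 1.52 ± 0.048 (SD, n = 3). The probe A_55_P2007017 gave 1198, 1030 and 1027, a level of 1.03 ± 0.081. The third, A_52_P363843, gave 174, 137 and 167, a level of -1.74 ± 0.142, and on this probe replicate 2 was low and the other two were close. For both of the latter probes 2 of the 3 pairs of arrays lay further apart in unscaled signal than the combined scanner error. This error is the one that the scanner software gives for the spots, and the brightness of the whole array is part of such differences.

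Their relative Zscan4a behaved alike on its 2 probes. One gave 1468, 1352 and 1302 and the other gave 921, 826 and 820, so replicate 1 was the highest on both. No other relative of the Zscan4 family was measured.

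Zfp352 encodes a zinc finger protein made from an early embryonic transcript. Its probe A_55_P2060343 gave signals of 5366, 4898 and 4723, a level of 3.24 ± 0.064 (SD, n = 3). Its other probe, A_55_P2182056, gave 13.2, 10.8 and 9.16 and passed the background flag on none of the 3 arrays, although the software called it positive and significant on all 3. The probes of Zfp352 thus disagreed, and the second lay in one of the blocks with many non-uniform spots on replicate 2.

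Tcstv1 and Tcstv3 belong to the 2-cell-stage variable group, a cluster of related genes. Tcstv1 gave signals of 74.7, 69.2 and 68.9, a level of -2.90 ± 0.029 (SD, n = 3). Tcstv3 gave 125, 127 and 111, a level of -2.13 ± 0.116. For Tcstv3 replicate 3 was the low array, and its spot lay in one of the marked blocks of replicate 2.

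Usp17la encodes a deubiquitinating enzyme, known as DUB1, of a cytokine-inducible family. Its 2 probes were both detected on every array. They gave 158, 137 and 151, a level of -1.84 ± 0.058 (SD, n = 3), and 142, 128 and 133, a level of -1.98 ± 0.023. Replicate 1 was the highest and replicate 2 the lowest on both. The relatives Usp17lb, with 122, 121 and 108, and Usp17lc, with 46.3, 39.4 and 44, were also detected. Usp17ld was detected with 70.5, 75.8 and 120, a range of 0.83 on the log2 scale, and lay in a marked block.

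Tdpoz1 and Tdpoz3 encode proteins with a TRAF domain and a POZ domain and lie in a cluster of like genes. Neither was detected on all 3 arrays. The Tdpoz3 probes gave 2.74, 3.14 and 2.77, and 2.32, 2.62 and 2.36, near the median of the negative control spots on each array, which was 2.42, 2.75 and 2.48. One Tdpoz1 probe gave 2.43, 2.80 and 2.62. The other, A_55_P1970284, gave 2.12, 12.3 and 2.13, and was well above background on replicate 2 alone, where it lay in a marked block. Whether the defect of that block moved this value was not tested.

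Other genes of the same cluster were detected. Tdpoz8 gave 5442, 5184 and 5321 on one probe and 161, 147 and 176 on the other. Tdpoz2 gave 27.0, 33.6 and 28.1. Tdpoz4 gave 2.68, 3.04 and 2.80 and passed the flag on none. Within this family the genes on the array thus fell on both sides of the background. The printed promoter windows of Tdpoz1 and Tdpoz8 matched at 84.4% of aligned positions, and the further window of Tdpoz8 was not aligned.

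**Figure D2:**
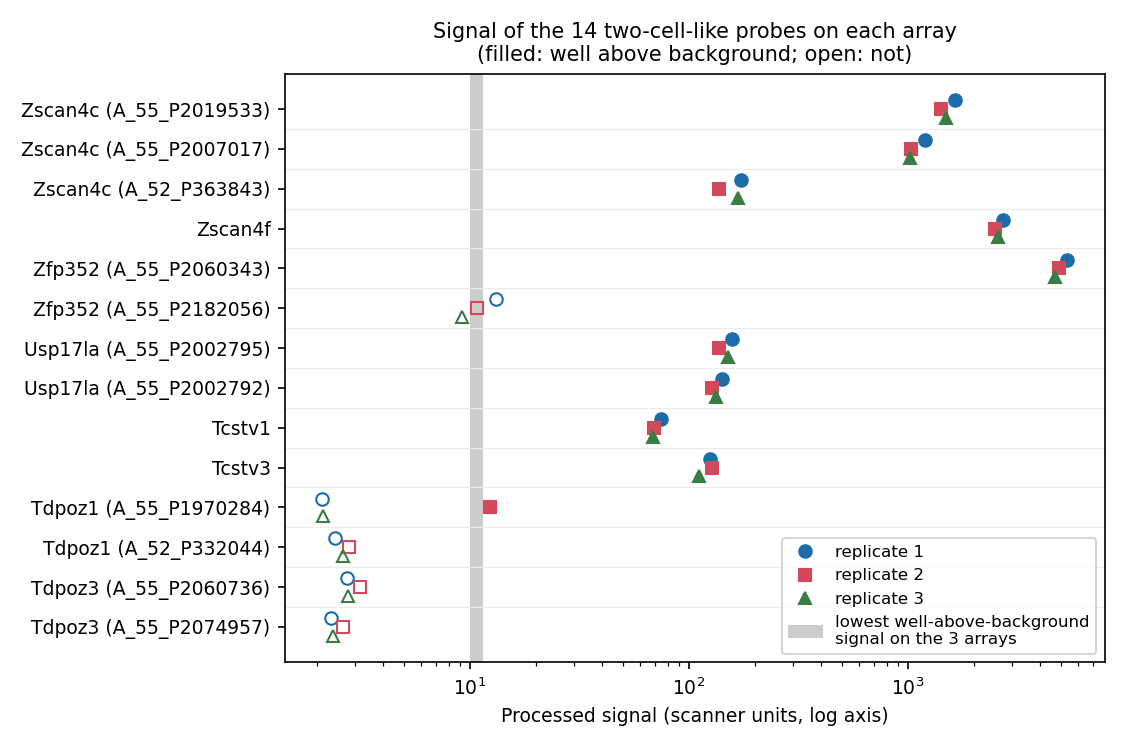
Processed signal (scanner units, log axis) of the 14 probes of the 8 measured genes on replicates 1, 2 and 3, filled where the spot was well above background and open where not, with the grey band marking the lowest signal of a detected probe on the 3 arrays (10.1 to 11.4). The 9 detected probes lie to the right of the band on all arrays, the Tdpoz3 probes and 1 Tdpoz1 probe lie to its left, the other Tdpoz1 probe passes it on replicate 2 alone, and the open Zfp352 symbols lie on both sides of it.

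For the detected probes of the group the SD between replicates ranged from 0.012 to 0.142 on the log2 scale, with a median of 0.058, beside 0.090 over all detected probes and 0.078 over detected probes whose mean level lay between the lowest and the highest of the group. The size of this gap depended on the processing: with normexp background correction and quantile normalization the medians were 0.062 for the group and 0.066 for all detected probes. No probe of the group had a range over 1 log2 unit, which 1.85% had of the 33474 detected probes with an unflagged value on all 3 arrays, and the ranges were 0.02 to 0.25. In 3 of the 9 probes at least 1 pair of arrays lay further apart in unscaled signal than the combined scanner error. The same held for 42.4% of all detected probes with 1 spot, and the brightness of the whole array is part of such differences. The median SD was 0.034 without replicate 1 and 0.037 without replicate 2. These spreads lie between samples, and differences between the cells of a culture were not measured.

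**Figure D3:**
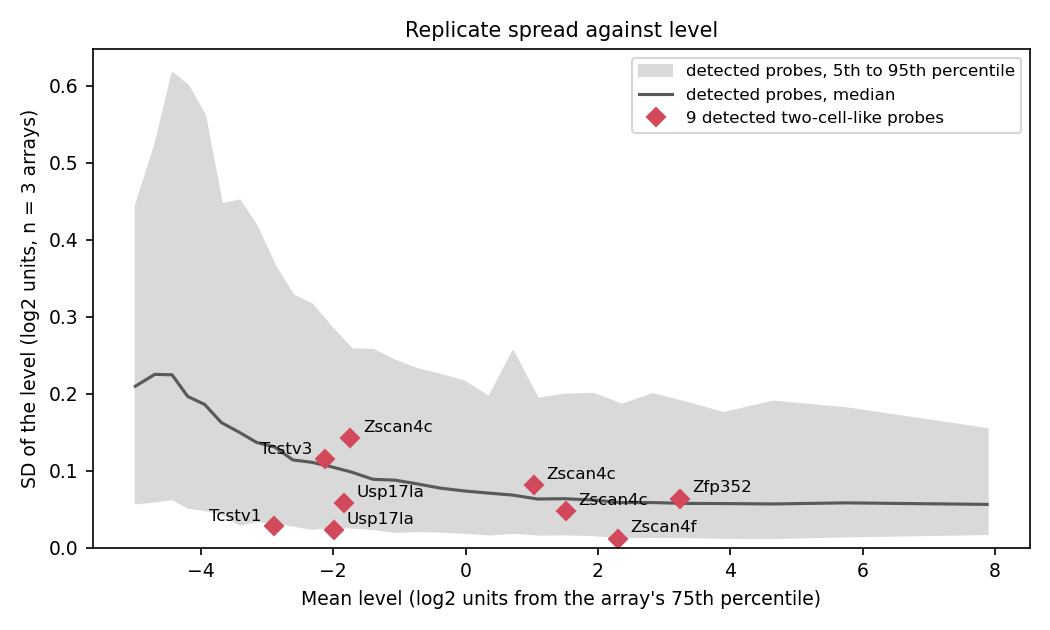
SD of the level over 3 arrays (log2 units) against the mean level (log2 units from the array's 75th percentile). The line and grey band give the median and the 5th to 95th percentile of all detected probes in bins of equal number, and the diamonds the 9 detected probes of the group, of which, on this scale, Zscan4f has the smallest SD (0.012) and a Zscan4c probe the largest (0.142).

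Most detected probes of the group were highest on replicate 1. This held for 7 of 9 probes, beside 28.6% of all detected probes, and the exceptions were Tcstv3 (replicate 2) and the dimmest Zscan4c probe (replicate 3). Some of these ranks rest on small gaps. For Tcstv1 replicates 1 and 2 lay 0.0185 and 0.0151 log2 units above the probe's mean. In unscaled signal, 3 of the 9 probes had any pair of arrays further apart than the combined scanner error. The lowest array was replicate 3 for 5 probes, beside 34.4% of all detected probes, and replicate 2 for 4, beside 31.2%. Replicate 1 was the lowest for none, beside 34.4%. The number highest on replicate 1 depended on the scaling. It was 6 after quantile normalization, beside 30.6% of all detected probes. When arrays were set to the median of all probes it was 4, beside 26.5%. On that scale 4 others were highest on replicate 3, beside 50.9% of all detected probes. Replicate 1 was the lowest for none of the 9 probes under the 7 scalings compared, while over all detected probes it was the lowest for 13.6% (unscaled signals) to 34.4%. The 7 scalings reuse the same 3 arrays. The 9 probes belong to 6 genes, and which copies a probe binds was not tested, so the probes are not separate observations.

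**Figure D4:**
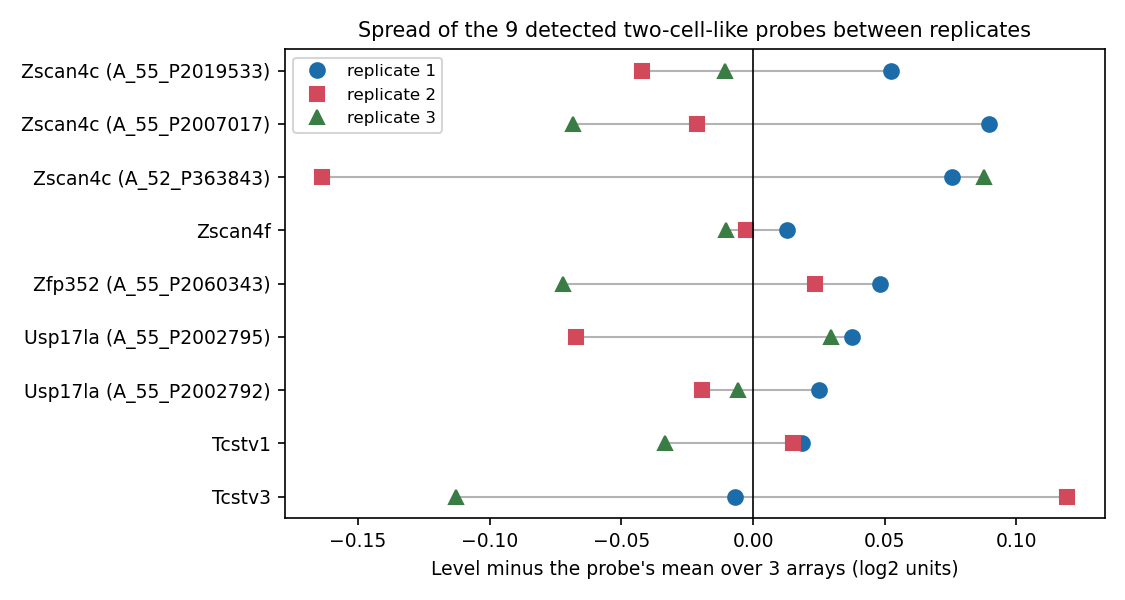
Level of each of the 9 detected probes on each replicate minus the probe's own mean (log2 units), with a grey line from the lowest to the highest array. Replicate 1 is the highest for 7 probes, and no probe spans more than 0.25.

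Of 34 listed other transcripts of the 2-cell-like state 26 were on the array, and 22 of these (84.6%) were detected on all 3 arrays, beside 72.8% of all named genes. The PRAME-like genes Pramel12, Pramel13, Pramel16, Pramel19, Pramel24 and Pramel31 were among them, as were the oocyte homeobox genes Obox1 and Obox6 and the arginase gene Arg2. When every probe of a gene had to be detected, 20 genes were, without Obox1 and Pramel24. The detected probe of Obox1 gave 16.9, 15.0 and 15.1, and that of Pramel24 gave 11.3, 11.5 and 15.9. The lowest signal of any detected probe was 10.1, 11.4 and 10.3. Also detected were the nuclear body gene Sp110, the membrane protein gene Tmem92, the translation factor genes Eif4e3 and Eif4a3l1, and BB287469, B020031M17Rik, Gm16381, Gm2016, Gm2022, Gm20767, Gm4340, Gm5039 and Gm8300. Obox3, Pramel17, Spz1 and Ubtfl1 were not detected on all 3 arrays, and Duxf3, which encodes DUX, had no probe.

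Among these, Obox6 gave signals of 744, 701 and 691 and Pramel12 gave 2213, 2043 and 2132. Gm4340 gave 1363, 1257 and 1215. The widest range among the detected probes, 0.83 on the log2 scale, was that of a Gm16381 probe with 2159, 1129 and 1985, whose spot on replicate 2 lay in a marked block. The other Gm16381 probe gave 13949, 13875 and 13295. The median SD over the 32 detected probes was 0.102, above the 0.090 of all detected probes. In 18 of the 32 at least 1 pair of arrays lay further apart in unscaled signal than the combined scanner error. The share over all detected probes with 1 spot was 42.4%. On the scale set to the 75th percentile 17 were highest on replicate 1, beside 28.6% of all detected probes. Counts under other scalings are not given for this list. Several of its probes belong to the same or related genes, so they are not separate observations.

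The listed genes known to act on the state were all detected, beside 72.8% of all named genes. The activators Dppa2, Dppa4, Nelfa, Smarca5 and Trp53 (5 of 5) had mean signals of 253 to 9929 over their 8 probes. The listed repressors, among them Trim28, Setdb1, Kdm1a, Chaf1a and Lin28a (32 of 32), had 153 to 83880 over 47 probes, 1 further probe, for Eed, having no unflagged value on replicate 2. Of 15 listed relatives of the group, 7 were on the array and 6 (85.7%) were detected.

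The flag was also met by genes of other tissues. Oocyte markers, which overlap in part with genes of the early embryo, were detected for 6 of 12 genes on the array (50.0%), beside 72.8% of all named genes. Bmp15, Figla, Mos, Oosp1, Zp1 and Zp2 were not detected. The summed signal of the oocyte list was 1556 to 1730 on the 3 arrays, of which Zp3 gave 862 to 1054. Fibroblast markers were detected for 6 of 10 genes (60.0%), while Lum, Postn, Col3a1 and Col5a2 did not pass the flag on at least 1 array. The summed signal of the fibroblast list was 1400 to 1491, of which Thy1 gave 612 to 640. That of the group was 10472 to 11630, of which 1 probe of Zfp352 gave 4723 to 5366. The sums cover different probes, 14 for the group, 13 for oocyte and 10 for fibroblast markers. They are therefore not a comparison of levels. Whether other cells added to the values of the group was not tested. Of the vomeronasal type 1 receptors, pheromone receptors of a sensory epithelium, 22 of 166 genes (13.3%) were detected, with mean signals of 14.3 to 271. The mean signals of Tcstv1 (70.9), Tcstv3 (121), the Usp17la probes (148 and 134) and the dimmest Zscan4c probe (159) lay within that range. Those of the other detected probes of the group, 1085 to 4995, lay above it.

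**Figure D5:**
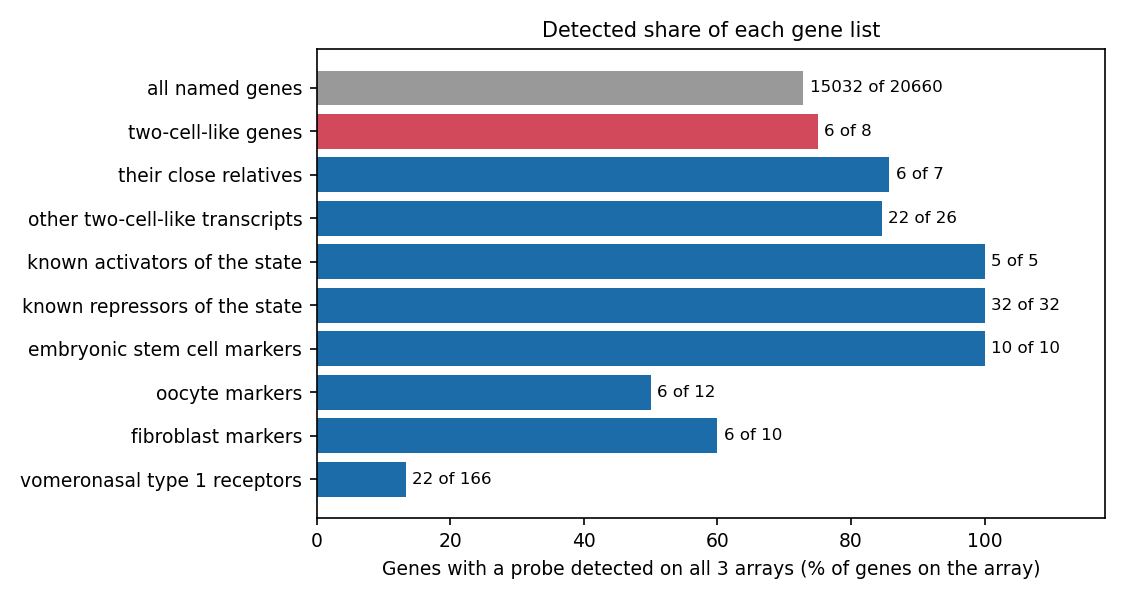
Share of the genes on the array with at least 1 probe detected on all 3 arrays (percent), for all named genes and for each gene list, with the counts beside the bars. The 2-cell-like genes (6 of 8) lie close to all named genes, and the vomeronasal receptors (22 of 166) have the smallest share shown.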

How the data were processed

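RNA of 3 PD-treated J1 mESC samples was measured on 1-colour Agilent arrays, and the study's methods describe 3 independent experiments. Per the file headers, the deposited intensity values were made with Agilent Feature Extraction 10.7.3.1, which subtracted background, removed spatial trends and set the flags and the error of each spot; they were not normalized between arrays. The authors also deposited a log2 table whose normalization is not given in the sources used here, and it served as an alternative. Probes were named through RefSeq accessions (GRCm38.p6). Levels were log2 processed signals minus the 75th percentile of each array. Each probe of the group had 1 spot, so the planned moderated F test between arrays (limma) was not run. Spot errors, set against unscaled processed signals, were used instead as a description. Alternatives used limma 3.58.1 in R 4.3.3 (quantile; normexp with an offset of 50). Counts and spreads were checked on simulated data. A marked block was a block of replicate 2 with at least 10 non-uniform spots, a limit chosen after the data were seen. All measured genes of the group, and all detected relatives and other 2-cell-like transcripts, were named. The genes and lists were chosen with earlier results of these data known. The number of arrays limits the precision.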

Additional observations from a re-analysis of the deposited data

How the results depend on the processing

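The median SD of the detected probes of the group was 0.058, beside 0.090 over all detected probes. It was 0.068 beside 0.090 with quantile normalization, 0.071 beside 0.096 with scaling to the median, 0.062 beside 0.066 with normexp, 0.063 beside 0.090 in the deposited table, and 0.053 beside 0.088 without the marked blocks, an alternative added after the data were seen. When 1 replicate was left out it was 0.034 without replicate 1 (beside 0.079), 0.037 without replicate 2 (beside 0.065) and 0.067 without replicate 3 (beside 0.08). Without the filter on dim probes it was 0.099 beside 0.143, and the number of probes with a range over 1 log2 unit, 0 under all other alternatives run, was 1, that of Tdpoz1 which passed the background flag on replicate 2 alone. With the looser flag (positive and significant) 10 probes were detected in place of 9. When every probe of a gene had to be detected, 5 genes were, in place of 6. The SD of single genes also depended on the setting. That of the same Tdpoz1 probe, 1.506, was 0.14 with normexp and 0.05 without replicate 2. Its signals on replicates 1 and 3, 2.12 and 2.13, did not pass the flag, so these SDs are not a spread of detected signals. That of Zfp352, 0.064, was 0.005 with normexp, and that of Zscan4f, 0.012, was 0.062 with normexp. The causes were not tested. No paired analysis was possible because there was 1 group. Spots that did not pass the background flag have only a bound.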
